A study of Mus musculus with 12 samples.

Results

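Ionizing radiation was given to wild type mouse bone marrow LSK cells, a sorted population that holds the blood stem cells and the earliest multipotent progenitors, and gene expression was measured on arrays 3 h after a dose of 4 Gy. The arrays compared are 6 of the 12 of the series: 3 arrays of irradiated wild type cells and 3 of untreated wild type cells, chosen by their labels alone. The other 6 arrays hold cells lacking NIPA, a ubiquitin ligase component encoded by Zc3hc1, treated in the same 2 ways. All 12 arrays were fitted together, so the standard errors and p-values of the wild type differences also draw on the knockout arrays. All mice, wild type and knockout, were older than 20 months and had been backcrossed to C57BL/6, and each sample merged the cells of 3 mice. The cells were sorted as negative for lineage antigens and positive for SCA1 and cKIT, then rested in culture for 30 min; the medium held 30% fetal calf serum, 10 ng/ml each of interleukins 3 and 6 and 50 ng/ml stem cell factor. Every array, the untreated ones included, is therefore of old animals and of cells that had been sorted and stimulated with cytokines. The wild type response was defined here as the irradiated minus the untreated level of each gene, in log2 units, so that a difference of 1 is a 2-fold change.

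A double-strand break in DNA activates the kinase ATM, which stabilizes the transcription factor p53. p53 switches on genes for cell cycle arrest, cell death, repair and metabolism. Among them is Cdkn1a, whose product p21 inhibits cyclin-dependent kinases, and kinase inhibition lets the DREAM repressor complex shut mitotic genes through an element called the cell cycle genes homology region (CHR). ATM also signals to NF-kB, a transcription factor of inflammatory and survival genes. In blood stem cells, damage is known to change survival, quiescence and lineage choice.

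The 6 wild type arrays had like overall brightness, with array medians within the range of 5.74 to 5.85 over all 12. The number of arrays, 3 a group, limits the precision: the median standard error of a difference was 0.15, and the median 95% interval reached 0.32 to each side. Zc3hc1 stood at 7.67 to 8.47 in the wild type arrays and at 5.61 to 5.82 in the knockout arrays, which matches the genotype labels. Kit, the receptor for stem cell factor and one of the antigens used for sorting, stood at 11.32, 10.92 and 10.91 in the untreated arrays with replicate numbers 1, 2 and 3. Ly6a, which encodes SCA1, was not analysed here. Genes were tested if they lay above a brightness limit of 5.29 in at least 3 of 12 arrays. Of the 16 T and NK cell markers examined, 8 were tested, with median levels of 5.56, 5.85 and 5.66 in untreated replicates 1, 2 and 3. Another 6 lay below the limit, Cd3e, Cd4 and Cd8a among them. Of 15 granulocyte markers, 14 were tested and 1, the neutrophil gene Ly6g, lay below it. The median level of the 14 was 6.05, 7.58 and 8.69 in the untreated arrays with replicate numbers 1, 2 and 3. Of 13 B cell markers, 10 were tested, with median levels of 5.84, 7.3 and 6.1 in the same arrays. Values below are given in the order of replicate numbers 1, 2 and 3. The labels do not say that untreated and irradiated samples of a number came from the same mice, and p-values measure the spread between these samples.

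Of 15348 genes tested, 742 (4.83%) differed between irradiated and untreated wild type cells at an adjusted p under 0.05 (limma, Benjamini-Hochberg): 327 rose (2.13%) and 415 fell (2.7%). The rises had a median of 0.86 and the falls a median of -0.78, against 0.0039 for all genes tested. At least a 2-fold change was seen in 129 of the genes that rose and 124 of those that fell, and a 4-fold change in 25 and 7. The median level of the genes that rose went from 7.19 to 8.44, and that of the genes that fell from 8.18 to 7.27. All 742 genes had the same sign in each of the 3 same-numbered pairs, and 741 had groups that did not overlap, which 24.8% of all genes did. Groups that do not overlap have the same sign in every pair by arithmetic. Genes that pass the test on these values mostly have such groups, so neither count is separate support. A call that held with each of the 12 arrays left out in turn was made for 270 genes (1.76%), 151 higher (0.984%) and 119 lower (0.775%). The count fell to 314 without untreated replicate 3, to 337 without untreated replicate 2 and to 350 without irradiated replicate 3. With the replicate number as a block it rose to 1228 (8%), of which 717 were among the 742; 510 were higher (3.32%) and 718 lower (4.68%). Over all 26279 probe sets above the brightness limit, with or without a gene symbol, 504 passed (1.92%).

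**Figure D1:**
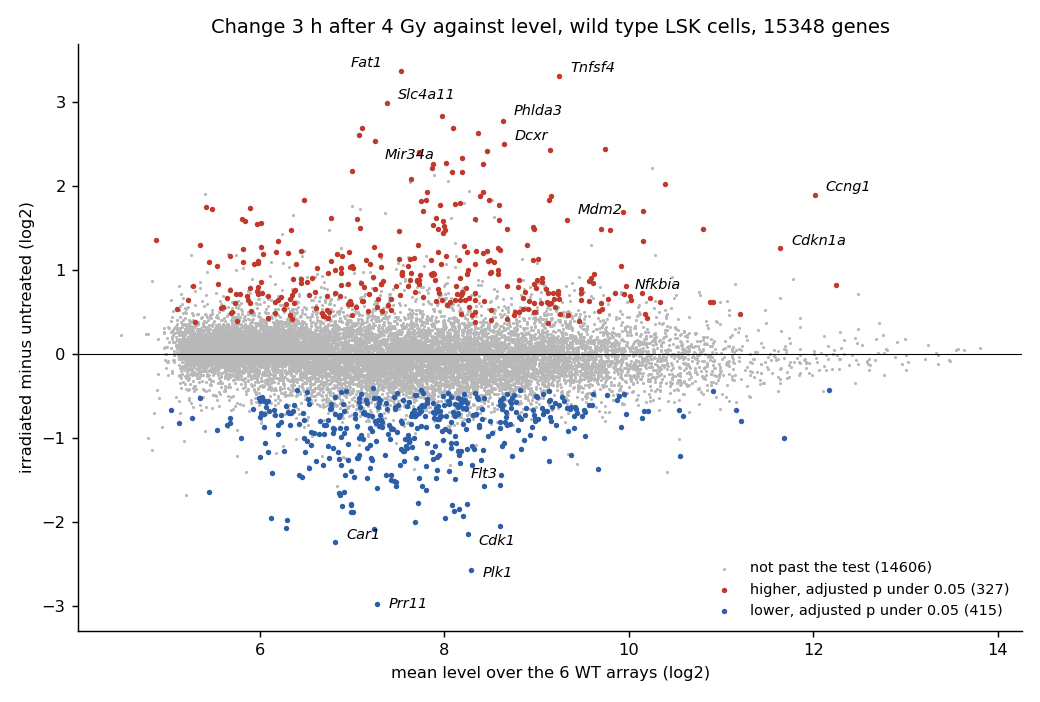
Change 3 h after 4 Gy (irradiated minus untreated, log2) against the mean level over the 6 wild type arrays (log2) for 15348 genes, each a point, with 327 higher genes in red, 415 lower genes in blue and the rest in grey. Fat1 (3.38), Tnfsf4 (3.31) and Slc4a11 (2.99) lie at the top and Prr11 (-2.98), Plk1 (-2.57) and Car1 (-2.24) at the bottom.

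Many genes that p53 is known to activate rose. Across 4 lists of such genes, 36 of 78 tested members rose and 1 fell, with a median of 0.62, and 31 of the 36 rises held with each array left out. Of all genes tested, 2.13% rose, and 0.984% rose with a call that held in this way. The direction of these lists had been seen in earlier results of the same arrays. Among the 25 tested genes of arrest and feedback, 14 rose with a median of 1.01. Cdkn1a, the kinase inhibitor p21, stood at 11.35, 11.12 and 10.56 in untreated cells and at 12.12, 12.72 and 11.98 in irradiated cells. Its rise of 1.26 (SE 0.23, 2.39-fold, limma adjusted p = 0.0079) left no overlap between the groups. Ccng1, which encodes cyclin G1, stood at 11.05, 11.17 and 10.98 without radiation and at 13.01, 13.06 and 12.82 with it. The arrays of each group lay close together, and the group means lay 1.90 apart (SE 0.14, 3.72-fold, limma adjusted p = 1.34e-05).

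Both inhibitors of p53 itself rose. Mdm2, the ubiquitin ligase that degrades p53, went from 8.71, 8.38 and 8.50 to 9.73, 10.38 and 10.28, a rise of 1.60 (SE 0.24, limma adjusted p = 0.00208). Mdm4, its partner, went from 7.48, 7.76 and 7.46 to 9.36, 9.37 and 9.46, a rise of 1.83 (SE 0.12, limma adjusted p = 1.25e-05). For Mdm2 the first irradiated array was the lowest of the 3, and for Mdm4 the irradiated arrays were nearly equal. Phlda3, an inhibitor of the kinase AKT, went from 7.10, 7.38 and 7.25 to 9.72, 10.39 and 9.96, the largest rise on the arrest list at 2.78 (SE 0.19, 6.87-fold, limma adjusted p = 1.25e-05). Dcxr, a carbonyl reductase, rose by 2.51, Trp53inp1, which promotes p53 activity, by 2.44, Plk2, a polo-like kinase of stress responses, by 2.17, and Sesn2, an inhibitor of mTOR signalling, by 1.70. Psrc1 and Gtse1, microtubule proteins that are p53 targets, rose by 2.16 and 1.89 while the mitotic genes described further on fell. Plk3 (0.54, limma adjusted p = 0.166) and the long noncoding RNA Trp53cor1 (0.87, limma adjusted p = 0.145, 0.00332 with the replicate block) did not pass. Trp53 and Bax were not analysed here.

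The promoter of Cdkn1a is shown because Cdkn1a was the gene that rose with a pair of p53 half-sites in the window searched. Its window is chr17:29090859-29090978 of GRCm38.p6, plus strand, from 120 bases to 1 base before 1 of the gene's annotated starts, with sequence from RefSeq. Capitals mark 2 matches to the p53 half-site, which lie 73 to 64 and 51 to 42 bases before the start. Exact matches alone were marked. The stretch right after the second match differs from the half-site pattern in its first letter and so is not in capitals. Which of these stretches p53 binds was not tested.
Cdkn1a: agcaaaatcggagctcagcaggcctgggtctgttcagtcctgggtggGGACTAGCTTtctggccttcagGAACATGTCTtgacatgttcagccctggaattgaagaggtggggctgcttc
A p53 half-site was searched for on both strands in windows from 250 bases before to 50 bases after each start. It was found for 8.5% of the 11890 tested genes with a window, for 11.5% of those that rose and for 14 of 66 genes (21.2%) on the 4 p53 lists. Paired half-sites with a spacer of 0 to 13 bases were found for 5 tested genes, and Cdkn1a was the 1 among them that rose. These shares describe the letters in short windows, and many known p53 sites lie elsewhere in their genes.

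Death genes rose in 10 of 22 tested cases (45.5%, against 2.13% of all genes), with a median of 0.64. Of the rises, 9 held with each array left out. The genes that rose included 3 surface receptors that can start cell death. Eda2r, a receptor for ectodysplasin A2, went from 6.14, 5.51 and 5.65 to 8.42, 8.39 and 8.55, a rise of 2.69 (SE 0.22, limma adjusted p = 3.8e-05). Tnfrsf10b, the receptor for TRAIL, went from 7.0, 7.25 and 6.88 to 9.38, 9.58 and 10.08, a rise of 2.64 (SE 0.26, limma adjusted p = 0.000195). Fas went from 6.01, 5.94 and 5.77 to 7.76, 8.47 and 8.03, a rise of 2.18 (SE 0.23, limma adjusted p = 0.000223). The lowest irradiated array stood above the highest untreated one by 2.25 for Eda2r, 2.13 for Tnfrsf10b and 1.75 for Fas. The BH3-only genes of the mitochondrial route had smaller differences. Pmaip1 (NOXA) went from 6.65, 7.62 and 7.42 to 8.43, 8.92 and 8.92, by 1.52 (limma adjusted p = 0.0037), and Bbc3 (PUMA) from 6.39, 6.77 and 6.82 to 7.49, 7.61 and 8.09, by 1.07 (limma adjusted p = 0.00899). Dapk1, a death-associated kinase, and Ei24, a protein of the endoplasmic reticulum, rose by 1.49 each, and the nuclease Aen rose by 1.15. Pidd1, which assembles a caspase 2 platform, gave 0.82 (limma adjusted p = 0.0551, 0.00336 with the replicate block) and Perp, a desmosome protein, gave 1.08 (limma adjusted p = 0.103). In the wider BCL2 family, Pmaip1 and Bbc3 were the 2 of 15 tested members that passed (13.3%, against 4.83% of all genes). The BH3-only gene Bcl2l11 (BIM) gave 0.41 (limma adjusted p = 0.0534).

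Repair genes linked to p53 moved both ways: 4 of 14 tested rose and 1 fell (35.7% passed, against 4.83% of all genes), with a median of 0.10. Ercc5, the XPG nuclease of nucleotide excision repair, went from 7.54, 7.29 and 7.51 to 9.16, 9.23 and 9.60, a rise of 1.89 (SE 0.19, limma adjusted p = 0.000223). The translesion polymerase Polk rose by 1.51 (limma adjusted p = 0.00182) and Mgmt, which removes alkyl groups from guanine, by 1.19. Gadd45b, a stress gene, rose by 1.05, a call lost without untreated replicate 3 (limma adjusted p = 0.0594). Polh, a translesion polymerase too, moved the other way, from 7.13, 7.75 and 7.06 to 6.47, 6.73 and 6.10. Its fall of 0.88 (limma adjusted p = 0.0296) was lost without untreated replicate 2, irradiated replicate 1 or irradiated replicate 3, the last giving 0.126.

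Metabolic and transport genes of the p53 response rose in 8 of 17 cases (47.1%, against 2.13% of all genes), with a median of 0.50. Of the rises, 7 held. Slc4a11, a membrane transporter, went from 5.86, 6.20 and 5.61 to 9.05, 8.81 and 8.77, a rise of 2.99 (SE 0.18, 7.95-fold, limma adjusted p = 4.92e-06). Cpt1c, a carnitine palmitoyltransferase, rose by 2.83 and Ephx1, an epoxide hydrolase, by 2.61. Smaller rises were those of the phosphatidate phosphatase Lpin1 (1.22) and Sat1 (0.88), which breaks down polyamines. The 8 also include Rnf169 (1.10), a break-binding ubiquitin ligase that is neither a metabolic enzyme nor a transporter. The ceramidase Acer2 gave 0.50 (limma adjusted p = 0.0883) and the peroxidase Gpx1 gave -0.56 (limma adjusted p = 0.0754, 0.0378 with the replicate block).

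**Figure D2:**
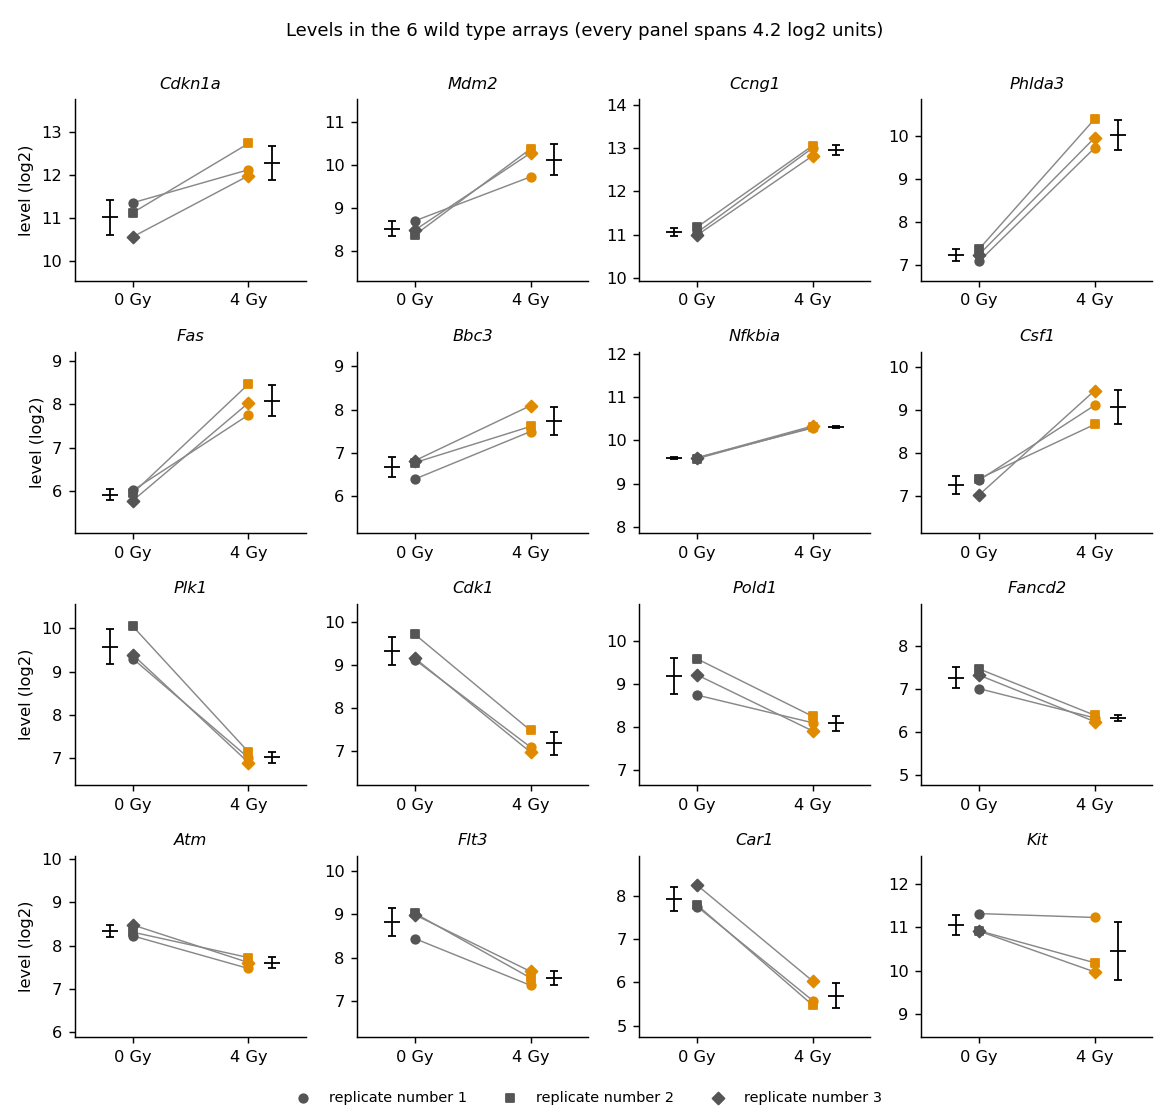
Levels (log2) of 16 genes in the 3 untreated (grey) and 3 irradiated (orange) wild type arrays, with lines joining same replicate numbers, horizontal marks at group means and bars of 1 SD. Groups are separate for 15 of the genes, and those of Kit overlap.

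Some of the large rises lay outside the p53 lists. Fat1, an atypical cadherin, went from 6.24, 5.65 and 5.65 to 9.73, 8.61 and 9.32, a rise of 3.38 (SE 0.35, 10.4-fold, limma adjusted p = 0.000223). Tnfsf4, the ligand of the T cell receptor OX40, went from 7.45, 8.41 and 6.92 to 9.76, 11.63 and 11.32, a rise of 3.31 with a wider spread (SE 0.53, limma adjusted p = 0.0034). The gap between its nearest arrays was 1.35, while the untreated arrays spanned 1.49. Epha2 and Efnb2, a receptor and a ligand of the ephrin system, rose by 2.69 and 1.21, and the integrin chain Itga4 fell by 0.66, a call lost without untreated replicate 3 (limma adjusted p = 0.0689). Of 38 adhesion, integrin and Eph genes tested, 3 rose and 1 fell (10.5% passed, against 4.83% of all genes). The semaphorin receptor Plxna1 rose by 2.43 (limma adjusted p = 6.5e-06, and by 1.43 with its probe sets averaged), the heparan sulfatase Sulf2 by 2.26, the chloride channel Ano1 by 2.27, connexin 43 (Gja1) by 2.22 and the thiamine transporter Slc19a2 by 1.93. Ahnak2 (2.42), Lacc1 (2.27), Dglucy (2.09) and Kank3 (1.93) rose in the same range.

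In the TNF ligand and receptor list, 6 of 36 tested genes rose and 1 fell (19.4% passed, against 4.83% of all genes). Besides Tnfsf4 and the 3 death receptors, Tnfrsf1b, the second TNF receptor, rose by 0.64, a call lost without untreated replicate 3 (limma adjusted p = 0.0663). Cd27, a receptor of the same family found on lymphoid-primed progenitors, went the other way, from 8.57, 9.18 and 8.89 to 7.79, 7.85 and 7.63. Its fall of 1.12 (limma adjusted p = 0.00796) held with each array left out. Notch3 rose by 0.97 and was the 1 of 42 Wnt, Notch, Hedgehog and TGFb genes to pass (2.38%, against 4.83% of all genes).

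Most of the tested genes of mitosis fell. In 3 lists covering mitotic entry and exit, kinetochores and the spindle, 70 of 109 tested genes fell and none rose, with a median of -1.12. The background share of falls was 2.7%, and 47 of the 70 held with each array left out. As above, the direction of these lists was known from earlier results. The groups did not overlap for 90 of the 109, against 13.3% of all genes in that direction, and 106 of the 109 had a negative difference. Untreated replicate 2 was the highest of the 3 untreated arrays for 98 of them. The median level over the 109 genes was 7.89, 8.30 and 8.09 in untreated cells and 6.93, 7.16 and 7.04 in irradiated cells, so the irradiated arrays lay closer together. In bulk samples fewer cells in mitosis and less mitotic RNA per cell cannot be told apart.

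Of the 31 tested genes of mitotic entry and exit, 18 fell, with a median of -1.07. Plk1, the polo-like kinase that drives mitotic entry, went from 9.30, 10.05 and 9.39 to 7.0, 7.14 and 6.89, a difference of -2.57 (SE 0.30, limma adjusted p = 0.0004). Cdk1, the mitotic cyclin-dependent kinase, went from 9.12, 9.71 and 9.16 to 7.10, 7.48 and 6.98, and Ccna2, its cyclin A2 partner, from 8.45, 9.01 and 8.57 to 6.66, 6.88 and 6.51. Their falls were 2.14 (SE 0.25, limma adjusted p = 0.000375) and 2.00 (SE 0.28, limma adjusted p = 0.00165), and the highest irradiated array of each of the 3 genes stood well below the lowest untreated one, by 2.16 for Plk1, 1.64 for Cdk1 and 1.58 for Ccna2. The kinase Aurkb fell by 2.05, the mitotic kinase Pbk by 1.95, separase (Espl1) by 1.47, the anaphase activator Cdc20 by 1.22, the Plk1 activator Bora by 1.15 and the centrosome kinase Nek2 by 1.07. Wee1, which holds Cdk1 inactive, gave -0.86 (limma adjusted p = 0.0777, 0.0221 with the replicate block), and the Cdk1 subunit Cks2 gave -0.71 (limma adjusted p = 0.144). Ccnb1 was not analysed here.

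At the kinetochore, where chromosomes meet the spindle, 22 of 38 tested genes fell, with a median of -0.93, and 13 fell without untreated replicate 2 or without untreated replicate 3. Birc5 (survivin), of the chromosomal passenger complex, went from 7.87, 8.59 and 8.38 to 6.36, 6.01 and 6.23, a fall of 2.08. Nuf2 fell by 1.88, the checkpoint kinases Ttk and Bub1 by 1.81 and 1.65, Knl1, their landing site, by 1.80, Ska1, which couples kinetochores to microtubules, by 1.79, and shugoshin (Sgo1), which guards sister cohesion, by 1.52. Cenpk gave -1.22 (limma adjusted p = 0.0508, 0.0138 with the replicate block) and Incenp gave -0.77 (limma adjusted p = 0.116, 0.0476 with the replicate block).

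The list of motors, spindle and cytokinesis genes had the largest share, with 30 of 40 tested genes lower and a median of -1.26. Prr11 had the largest fall on the arrays, from 8.37, 9.11 and 8.81 to 5.54, 5.75 and 6.07, a difference of -2.98 (SE 0.32, limma adjusted p = 0.00023). Hmmr and Aspm, which organize spindle poles, fell by 1.98 and 1.95, the kinesins Kif11, Kif18a and Kif22 by 1.93, 1.59 and 1.39, and the cleavage furrow and midbody genes Anln (-1.87), Prc1 (-1.86) and Cep55 (-1.68) were lower too. The spindle protein Ckap2l fell by 1.64. Depdc1a, a gene of mitotic cells, fell by 2.06.

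**Figure D3:**
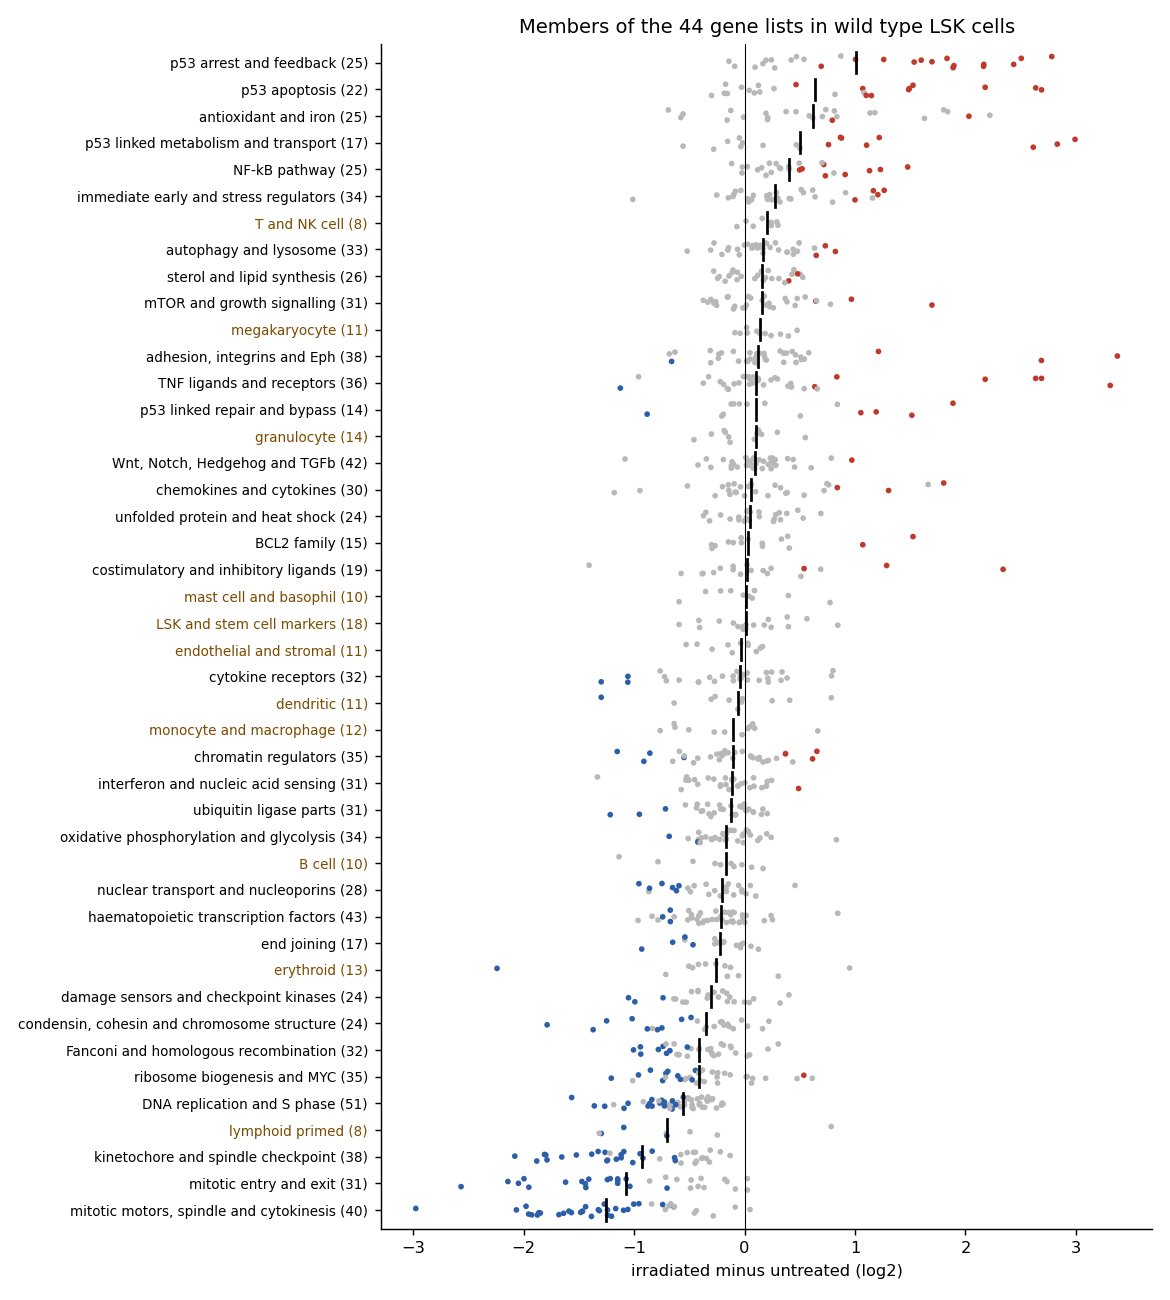
Change (irradiated minus untreated, log2) of each tested member of the 44 gene lists in wild type cells, with rises in red, falls in blue, genes that did not pass in grey and a black bar at the list's median (cell type lists in brown type, tested members in brackets). The p53 lists of arrest and of apoptosis have the highest medians, 1.01 and 0.64, and the 3 mitosis lists the lowest, -0.93 to -1.26.

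The promoters of 6 falling mitotic genes are shown because a CHR, bound by the DREAM repressor and its activating relatives, was common near the start sites of the genes that fell most. Each window ends 1 base before the start and begins 120 bases before it, on the gene's own strand, with sequence from RefSeq on GRCm38.p6. They are Cdk1 (chr10:69352913-69353032, minus strand), Top2a (chr11:99024190-99024309, minus), Kif11 (chr19:37376262-37376381, plus), Depdc1a (chr3:159495313-159495432, plus), Espl1 (chr15:102296173-102296292, plus) and Cdc20 (chr4:118437344-118437463, minus). Capitals mark the CHR letters TTTGAA or their reverse TTCAAA, and the CCAAT box, bound by NF-Y, or its reverse ATTGG.
Cdk1: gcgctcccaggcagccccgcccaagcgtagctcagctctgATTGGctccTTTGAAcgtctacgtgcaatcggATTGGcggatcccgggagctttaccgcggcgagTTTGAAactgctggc
Top2a: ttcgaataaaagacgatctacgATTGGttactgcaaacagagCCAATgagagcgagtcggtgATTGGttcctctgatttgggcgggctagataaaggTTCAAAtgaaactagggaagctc
Kif11: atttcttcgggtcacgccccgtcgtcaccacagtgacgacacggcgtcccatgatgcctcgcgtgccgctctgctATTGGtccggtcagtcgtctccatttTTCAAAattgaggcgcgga
Depdc1a: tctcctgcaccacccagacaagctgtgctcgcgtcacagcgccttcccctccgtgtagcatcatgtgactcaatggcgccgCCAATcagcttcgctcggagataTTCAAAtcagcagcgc
Espl1: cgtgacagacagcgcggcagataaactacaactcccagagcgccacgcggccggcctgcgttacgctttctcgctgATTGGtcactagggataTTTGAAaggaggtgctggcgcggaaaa
Cdc20: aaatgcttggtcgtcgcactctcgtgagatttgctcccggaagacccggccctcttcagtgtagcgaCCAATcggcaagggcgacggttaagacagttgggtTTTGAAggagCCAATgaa
In all 6 windows a CHR lay within 50 bases of the start, and a CCAAT box lay further upstream. In Cdk1 the near CHR covers 15 to 10 bases before the start and a second one 71 to 66 bases before it.

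Over all tested genes with a window from 250 bases before to 50 bases after a start, 14.5% held TTTGAA on either strand. Of the genes that fell by 1.5 or more, 20 of 28 held it (71.4%). The share was 29 of 65 (44.6%) for falls of 1 to 1.5, 53 of 235 (22.6%) for smaller falls, 14.1% for genes that did not pass and 33 of 262 (12.6%) for genes that rose. In 17 of the 20 genes of the first class the CHR lay within 50 bases of the start. The share differed with the lists a gene was on. Among genes that fell by 1 or more, 40 of 54 (74.1%) on a mitosis, chromosome, replication or repair list held a CHR and 9 of 39 (23.1%) on none of these lists did. Among genes that fell by less than 1, the shares were 12 of 30 (40%) and 41 of 205 (20.0%), so off the lists the share was much the same in both classes. CCAAT on either strand was found for 41.5% of tested genes and for 60.7%, 66.2% and 47.7% of the genes in the same 3 classes of fall. The E2F letters TTTCCCGC or TTTGGCGC were found for 3.09% of tested genes and 8.84% of those that fell. CHR and CCAAT matches can share bases where CCAAT runs into TTCAAA, and a gene was counted if any of its windows held the letters.

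**Figure D4:**
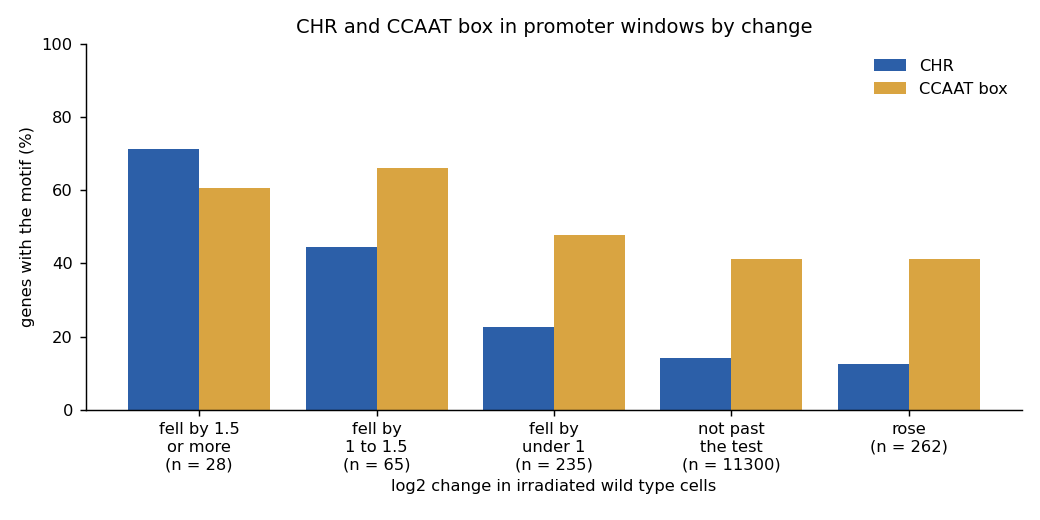
Percent of genes whose promoter window holds a CHR (blue) or a CCAAT box (yellow), for classes of log2 change in irradiated wild type cells, with the number of genes that have a window under each pair of bars. The CHR share goes from 71.4% in genes that fell by 1.5 or more to 12.6% in genes that rose, and the CCAAT share from 60.7% and 66.2% to 41.2%.

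Some genes of chromosome structure and DNA replication fell too, with calls that rested on single arrays. Among 24 tested condensin, cohesin and chromosome genes, 9 fell (37.5% passed, against 4.83% of all genes). Top2a, the topoisomerase that untangles chromosomes, went from 8.89, 9.45 and 9.08 to 7.23, 7.57 and 7.27, a fall of 1.79 (SE 0.30, limma adjusted p = 0.00425), and its nearest arrays of the 2 groups lay 1.33 apart. The cohesin regulator Cdca5 fell by 0.75. The condensin subunits Ncapd2 (-1.02) and Ncapd3 (-0.48) and Hmgb2, a DNA-bending protein (-0.88), passed as well but not with either untreated replicate 2 or 3 left out in turn (limma adjusted p up to 0.0636). The proliferation marker Mki67 gave -1.37 (limma adjusted p = 0.0219, 0.1 without untreated replicate 2). The count of 9 became 2 without untreated replicate 2 or untreated replicate 3 and 5 without any 1 of the irradiated arrays.

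All 51 tested replication and S phase genes had a negative difference, with a median of -0.55, and 17 of them fell (33.3% passed, against 4.83% of all genes). Pold1, the catalytic subunit of DNA polymerase delta, went from 8.74, 9.58 and 9.21 to 8.10, 8.25 and 7.91, a fall of 1.09 (limma adjusted p = 0.00893). Its second subunit Pold2 fell by 1.05 (limma adjusted p = 0.00182), DNA polymerase epsilon (Pole) by 0.84 (with its probe sets averaged -0.35, limma adjusted p = 0.051), DNA ligase 1 (Lig1) by 0.77, thymidylate synthase (Tyms) by 0.75 and the clamp loader subunit Rfc2 by 0.73. Rpa3, of the single-strand binding complex, gave -1.18 (limma adjusted p = 0.092, 0.043 with the replicate block) and Uhrf1, which maintains DNA methylation, gave -0.92 (limma adjusted p = 0.112). The number that fell was 6 without untreated replicate 2, untreated replicate 3 or irradiated replicate 3, and 10 without irradiated replicate 1.

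In the lists of damage sensors, of the Fanconi pathway with homologous recombination, and of end joining, 3 of 24, 8 of 32 and 4 of 17 tested genes fell, against 2.7% of all genes. None of them rose, where the share of all genes that rose was 2.13%. Atm, the kinase that answers double-strand breaks, went from 8.22, 8.31 and 8.48 to 7.47, 7.72 and 7.61, a fall of 0.74 (SE 0.12, limma adjusted p = 0.0037) that held with each array left out. Fancd2, the central protein of the Fanconi pathway, went from 7.01, 7.47 and 7.32 to 6.33, 6.39 and 6.25, a fall of 0.94 (SE 0.13, limma adjusted p = 0.00165), and the nuclease Exo1 fell by 1.01. The histone H2ax went from 12.05, 12.46 and 12.03 to 11.40, 11.16 and 11.00. Its groups did not overlap, and its fall of 0.99 (limma adjusted p = 0.0259) was lost without untreated replicate 2 (0.125). Tipin, of the fork protection complex, passed at -1.05 (0.12 without irradiated replicate 3). The checkpoint kinase Chek1 gave -0.62 (limma adjusted p = 0.121) and its adaptor Clspn gave -0.64 (limma adjusted p = 0.128). Xrcc6 (Ku70) of end joining gave -0.93 (limma adjusted p = 0.0454, 0.054 with the replicate block, 0.18 without untreated replicate 2).

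These counts moved with single arrays. For damage sensors 1 gene fell without untreated replicate 2, untreated replicate 3 or irradiated replicate 3, and 5 fell without irradiated knockout replicate 1 or with the replicate block. The Fanconi and recombination count was 2 and 3 without untreated replicates 2 and 3, and 4, 5 and 3 without irradiated replicates 1, 2 and 3, and 5 when only the 6 wild type arrays were fitted. The end joining count was 0 without untreated replicate 2 or irradiated replicate 3, 1 without untreated replicate 3, irradiated replicate 1, irradiated replicate 2 or untreated knockout replicate 1, and 2 without untreated knockout replicate 2 or 3. It was 1 with loess scaling and 2 with no brightness limit.

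NF-kB pathway genes rose in 8 of 25 tested cases (32.0% passed, against 4.83% of all genes), with none lower and a median of 0.40. Nfkbia, the inhibitor IkB alpha and a target of NF-kB, had nearly equal values within each group: 9.60, 9.58 and 9.60 in untreated cells and 10.29, 10.31 and 10.34 in irradiated cells. Its rise was 0.72 (SE 0.11, limma adjusted p = 0.00205). Nfkb2, the p100 precursor of the noncanonical pathway, went from 9.17, 9.27 and 8.96 to 10.22, 10.00 and 9.90, a rise of 0.91 (limma adjusted p = 0.00151). Tnip3, which dampens NF-kB signalling, rose by 1.48 and the kinase Ikbke by 1.13. Relb (0.73) and Traf1 (1.23) passed too, but not without untreated replicate 3 (limma adjusted p = 0.0555 and 0.0704). Without that array 4 genes of the list rose.

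Among 30 tested chemokines and cytokines, 3 rose (10.0% passed, against 4.83% of all genes). Csf1, the macrophage growth factor, went from 7.38, 7.41 and 7.04 to 9.11, 8.67 and 9.45, a rise of 1.80 (SE 0.27, limma adjusted p = 0.00234), and the neutrophil chemokine Cxcl2 rose by 1.30 (limma adjusted p = 0.00296). Ccl3 passed at 0.84 (limma adjusted p = 0.044, 0.171 without irradiated replicate 3). Cxcl3 went from 5.80, 5.51 and 5.29 to 5.88, 8.02 and 7.68, and so was high in irradiated replicates 2 and 3 but not in replicate 1 (1.66, limma adjusted p = 0.0679). Without irradiated replicate 1, 5 genes of the list rose, and with the replicate block 5 rose and 2 fell. Ligands seen by T and NK cells rose in 3 of 19 tested cases (15.8% passed, against 4.83% of all genes). Ulbp1, a ligand of the NKG2D receptor, rose by 1.29. Cd80, a costimulatory ligand, went from 7.57, 7.07 and 6.42 to 9.65, 9.21 and 9.22, a rise of 2.34 (limma adjusted p = 0.00895) that narrowly lost its call without untreated replicate 3 (0.0524). H60b, another NKG2D ligand, passed at 0.54 (0.177 without untreated replicate 3), and 1 gene of the list rose without that array.

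The promoters of Nfkbia, Cxcl2 and Csf1 are shown because they hold a complete NF-kB site in the window searched. Their windows are chr12:55492648-55492767 (minus), chr5:90903779-90903898 (plus) and chr3:107760510-107760629 (minus) of GRCm38.p6, from RefSeq. The first pair run from 120 bases to 1 base before the start, and that of Csf1 from 160 to 41 bases before it. Capitals mark the NF-kB site of 10 bases, read on either strand.
Nfkbia: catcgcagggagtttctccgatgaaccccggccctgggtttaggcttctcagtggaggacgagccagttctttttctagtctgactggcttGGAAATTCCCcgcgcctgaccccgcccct
Cxcl2: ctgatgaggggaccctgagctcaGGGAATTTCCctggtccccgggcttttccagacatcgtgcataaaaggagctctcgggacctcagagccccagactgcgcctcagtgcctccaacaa
Csf1: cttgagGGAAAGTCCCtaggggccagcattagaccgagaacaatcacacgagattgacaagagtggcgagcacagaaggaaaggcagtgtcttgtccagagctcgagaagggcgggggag
The 3 forms of the NF-kB site searched on both strands, among them the 2 shown in capitals, were found for 0.513% of tested genes with a window, 2.67% of those that rose (7 genes, Nfkb2 among them) and 0.305% of those that fell. The AP-1 letters TGACTCA were found for 4.98%, 6.49% and 3.05% of the same sets.

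Immediate early and stress regulators rose in 4 of 34 tested cases, with none lower (11.8% passed, against 4.83% of all genes). When only the 6 wild type arrays were fitted, 7 rose. Dusp1, a phosphatase of stress kinases, rose by 1.26 (limma adjusted p = 0.0167, 0.079 without untreated replicate 3), Ier5 by 1.21, the orphan nuclear receptor Nr4a3 by 1.17 and the stress factor Atf3 by 1.00. Fosb gave 1.16 (limma adjusted p = 0.0508, 0.0314 with the replicate block), and Myc gave -1.01 (limma adjusted p = 0.145, 0.0475 with the replicate block).

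Antioxidant and iron genes had a high median, 0.62 over 25 tested genes, but 2 of them rose (8% passed, against 4.83% of all genes). Nfe2l2 (NRF2), the regulator of this group, rose by 0.79 (limma adjusted p = 0.00226). Hmox1, which breaks down haem, went from 9.57, 10.07 and 8.49 to 10.71, 11.50 and 12.02, a rise of 2.03 (limma adjusted p = 0.0344, 0.149 without untreated replicate 3). Slc7a11, the cystine transporter, went from 8.52, 9.98 and 8.93 to 9.79, 12.16 and 12.14 (2.22, limma adjusted p = 0.0877), so that its first irradiated array lay below its second untreated one. The iron exporter Slc40a1 gave 1.84 (limma adjusted p = 0.0917). With the replicate block, Slc7a11 (0.0129) and Slc40a1 (0.00636) passed, and 9 genes of the list rose and 1 fell. The list's median by pair was 0.19, 0.69 and 0.92 for replicate numbers 1, 2 and 3. The number that rose was 6 without irradiated replicate 1, 5 without irradiated knockout replicate 1 and 1 without untreated replicate 1, untreated replicate 3, irradiated replicate 2 or irradiated replicate 3.

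Genes of growth control and of the lysosome passed in 9.68% and 9.09% of tested cases, against 4.83% of all genes. The share was 7.69% for sterol and lipid synthesis and 3.23% for interferon and nucleic acid sensing. Of 31 mTOR and growth signalling genes, 3 rose: Sesn2, Ddit4, a stress inhibitor of mTOR (0.97), and Prkab2, a subunit of the energy sensor AMPK (0.65, limma adjusted p = 0.0188 and 0.0926 without untreated replicate 3). The number was 5 without irradiated knockout replicate 1. Of 33 autophagy and lysosome genes, 3 rose, the cargo receptor Sqstm1 (0.82), the protease Ctsl (0.73) and the autophagy kinase Ulk1 (0.65). That count was 0 without untreated replicate 3 and 1 without untreated replicate 2, irradiated replicate 2 or irradiated replicate 3. Of 26 sterol and lipid synthesis genes 2 rose, Fdft1 (0.48) and Msmo1 (0.40, limma adjusted p = 0.0656 with the replicate block), and neither held with untreated replicate 2, untreated replicate 3, irradiated replicate 2 or irradiated replicate 3 left out or with array medians subtracted. The count was 1 without untreated replicate 1, irradiated replicate 1 or any knockout array except irradiated replicate 1, and 5 with loess scaling. None of 24 genes of the unfolded protein and heat shock responses passed, Ddit3 (CHOP) giving 0.69 (limma adjusted p = 0.181, 0.0448 with the replicate block). Of 31 interferon and nucleic acid sensing genes, Mx2 passed (0.49, limma adjusted p = 0.0353). It did not pass after loess scaling, with medians subtracted, or without untreated replicate 1, untreated replicate 3 (0.137), any of the 3 irradiated arrays or untreated knockout replicate 2.

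Of 35 tested ribosome biogenesis and MYC genes 10 fell, 1 rose and 24 did not pass (31.4% passed, against 4.83% of all genes), with a median of -0.41. Rrp12, a ribosome export factor, fell by 0.74 (limma adjusted p = 0.00827) and passed with each of the 12 arrays left out. Dkc1, which modifies ribosomal RNA, passed at -0.96 (0.133 without irradiated replicate 3) and Nop2, a ribosomal RNA methyltransferase, at -0.71 (0.126 without untreated replicate 2), while Utp20 passed at 0.54 (0.116 without irradiated replicate 3). The number that fell was 1 without untreated replicate 2, untreated replicate 3 or irradiated replicate 3, 5 without untreated replicate 1, irradiated replicate 1 or untreated knockout replicate 2, and 4 without irradiated replicate 2.

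Nuclear transport genes fell in 6 of 28 tested cases (21.4% passed, against 4.83% of all genes). Ranbp1, a regulator of the Ran GTPase, fell by 0.65 and held with each array left out, and the importin Kpna2 fell by 0.96 (limma adjusted p = 0.0114, 0.0632 without untreated replicate 2). The count was 1 without untreated replicate 2 or irradiated replicate 3 and 2 without untreated replicate 3 or irradiated replicate 1. Of 31 ubiquitin ligase parts 3 fell (9.68% passed, against 4.83% of all genes). Among them were Cdc20 and the F-box protein Skp2 (-0.72, limma adjusted p = 0.0148 and 0.0782 without untreated replicate 2). The number of ligase parts that fell was 1 without untreated replicate 2 or 3 and 5 without untreated replicate 1. Of 35 chromatin regulators 3 rose and 4 fell (20.0% passed, against 4.83% of all genes). The histone chaperone Asf1b, which serves replication, fell by 1.15, and the DNA methyltransferase Dnmt3b by 0.86 (0.0524 without untreated replicate 3). The demethylases Kdm1a (0.62) and Kdm5b (0.37, limma adjusted p = 0.0563 with the replicate block) passed as higher, but no chromatin gene was called higher without untreated replicate 2, untreated replicate 3, irradiated replicate 1 or irradiated replicate 2, and 1 was without irradiated replicate 3 or with the replicate block. The number lower was 1 without untreated replicate 3 and 2 without untreated replicate 2 or irradiated replicate 3. Of 34 genes of oxidative phosphorylation and glycolysis 2 fell (5.88% passed, against 4.83% of all genes), Pdk1 (-0.68) and Atp5o (-0.42). Neither passed without untreated replicate 2 or untreated replicate 3. With untreated replicate 1, irradiated replicate 2, irradiated replicate 3 or any knockout array except irradiated replicate 1 left out, 1 of the pair passed.

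None of 18 tested markers of LSK and stem cells passed the test, where 4.83% of all genes did. At that share a list this short can hold no call, so the lack of calls does not show that identity was kept. Over the 18 tested stem cell markers the median difference was 0.01. Kit went from 11.32, 10.92 and 10.91 to 11.23, 10.18 and 9.97, with overlapping groups and lower values in the second and the third irradiated array (-0.59, SE 0.30, limma adjusted p = 0.309). Mecom (EVI1), a stem cell transcription factor, gave 0.84 (limma adjusted p = 0.274, and 0.49 with its probe sets averaged). Of 8 tested genes that mark lymphoid priming, 3 fell (37.5% passed, against 4.83% of all genes). Flt3, the receptor that marks multipotent progenitors on the lymphoid route, went from 8.44, 9.03 and 8.99 to 7.36, 7.53 and 7.68, a fall of 1.30 (SE 0.16, limma adjusted p = 0.000577) that held with each array left out. The list had a median of -0.705, and its median level went from 8.15, 8.98 and 8.92 to 7.37, 7.64 and 7.60. Besides Flt3 these were Il12a (-1.09, limma adjusted p = 0.0214) and the chromatin organizer Satb1 (-0.70, limma adjusted p = 0.044). With untreated replicate 2, untreated replicate 3 or irradiated replicate 2 left out, 1 gene of the list fell. Dntt, the terminal transferase of early lymphoid cells, gave -1.31 (limma adjusted p = 0.083), and Notch1 on the same list gave 0.78 (limma adjusted p = 0.0777, 0.0129 with the replicate block).

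Receptors and transcription factors of blood formation passed in 9.38% and 6.98% of tested cases, against 4.83% of all genes. Of 32 cytokine receptors 3 fell: Flt3, the leukaemia inhibitory factor receptor Lifr (-1.06, 0.066 without untreated replicate 3) and the interleukin 1 receptor Il1r1 (-1.06, 0.0697 without untreated replicate 2). That number was 1 without untreated replicate 2, untreated replicate 3 or irradiated replicate 3. Of 43 haematopoietic transcription factors 3 fell, Myb (-0.74), Ikzf1 (-0.67) and Fli1 (-0.67), none of which passed without untreated replicate 2, untreated replicate 3 or irradiated replicate 3. With all probe sets of a gene averaged, Myb gave -0.39 (limma adjusted p = 0.21). With irradiated replicate 2 left out 1 gene of the list fell, without irradiated knockout replicate 1 or 3 there were 5, and with the replicate block 6. Lyl1 gave -0.96 (limma adjusted p = 0.0661, 0.0471 with the replicate block).

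Over 9 lists of markers of other lineages, 2 of 99 tested genes passed (2.02%, against 4.83% of all genes), Flt3 in the dendritic list and Car1 in the erythroid list, and the median was -0.02. Car1, which encodes an enzyme of red cell precursors that hydrates carbon dioxide, went from 7.76, 7.80 and 8.26 to 5.58, 5.47 and 6.03, a fall of 2.24 (SE 0.27, limma adjusted p = 0.000538). It was the 1 erythroid marker of 13 to pass, and 2 of 13 fell with the replicate block. The median of the erythroid list was -0.26, and 11 of the 13 markers had a negative difference. For 6 of the 13 the groups did not overlap in that direction, against 13.3% of all genes. In knockout cells 5 of the 13 fell, against 3.2% of all genes. No marker passed of 10 B cell, 8 T and NK cell, 14 granulocyte, 12 monocyte and macrophage, 11 megakaryocyte, 10 mast cell and basophil and 11 endothelial and stromal genes. The granulocyte markers differed by replicate number, with median levels of 6.05, 7.58 and 8.69 in untreated and 6.68, 7.22 and 8.12 in irradiated cells. Those of the B cell markers were 5.84, 7.3 and 6.1 in untreated and 5.4, 6.1 and 5.71 in irradiated cells, highest in untreated replicate 2. The neutrophil granule gene Ngp, chosen after its values were seen, stood at 5.83, 8.21 and 9.40 in untreated and at 6.94, 8.20 and 9.20 in irradiated cells. The part of granulocytes and of B cells in the results was not tested beyond the replicate block.

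Noncoding genes were among the calls: 18 of 849 long noncoding RNAs rose and 9 fell (3.18%), against 295 and 400 of 13856 protein-coding genes (5.02%). Of 202 miRNA genes 5 rose and 1 fell (2.97%), and of 65 small nucleolar RNA genes 3 fell (4.62%). Both shares were below the 4.83% of all genes. Lockd, a long noncoding RNA encoded near the p27 gene Cdkn1b, went from 8.52, 8.75 and 8.55 to 6.51, 6.99 and 7.0, a fall of 1.78 (limma adjusted p = 0.00023). The other noncoding genes in the next sentences were chosen after their values were seen. Pvt1, the neighbour of Myc, rose by 0.89 (limma adjusted p = 0.00442). Mir34a, a p53 target, went from 6.23, 6.08 and 5.64 to 7.29, 9.35 and 8.93, a rise of 2.54 with a wide spread (SE 0.65, limma adjusted p = 0.043) that was lost without untreated replicate 3 (0.156). Mir31 rose by 0.89 (limma adjusted p = 0.00939, 0.0542 without untreated replicate 2) and Mir3097 by 1.07 (limma adjusted p = 0.00278). These probe sets carry the name of a miRNA gene, and the sources used here do not say whether they read the mature miRNA.

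For each of these 3 genes 1 of the 2 mature products that RefSeq lists is shown, with the seed, bases 2 to 8, in capitals. The arms were picked for display, and the arrays do not say which arm was present. The sequences are from RefSeq on GRCm38.p6 and lie at chr4:150068473-150068494 on the plus strand, chr4:88910614-88910635 on the minus strand and chr5:35021094-35021115 on the plus strand.
miR-34a-5p: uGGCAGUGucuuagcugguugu
miR-31-5p: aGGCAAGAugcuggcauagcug
miR-3097-3p: cUCAGACCuuucuaccugucag
The first pair share the first 4 bases of the seed, and no seed is the same.

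The response of cells without NIPA was set beside that of the wild type. In the knockout arrays, 911 genes (5.94%) differed between irradiated and untreated cells, 420 higher (2.74%) and 491 lower (3.2%). Of the 742 wild type calls, 550 were made there too, which is 74.1% of the wild type calls and 60.4% of the knockout calls. The sign was the same for 741 of the 742, and the 2 sets of differences, which share no arrays, correlated across genes with r = 0.864 over all genes. No gene passed the test of the difference between the 2 responses (limma), with a smallest adjusted p of 1, and 235 had an unadjusted p under 0.05. The median standard error of that difference was 0.21. Differences several times that size did not pass, as the next genes show. The p53 lists had 38 rises and 1 fall in the knockout against 36 and 1 in the wild type, and the mitosis lists 66 falls against 70. The replication and repair lists had 39 falls against 32, and the NF-kB, chemokine and costimulatory lists 20 rises against 14.

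The smallest p of the difference was that of A1cf, an RNA-binding cofactor of mRNA editing. Its wild type levels went from 6.91, 6.99 and 6.91 to 7.83, 8.19 and 8.20, a rise of 1.14, while the knockout rise was 2.02. The difference was -0.88 (SE 0.22) and did not pass. Hmgn5, a nucleosome-binding protein, fell by 0.62 in wild type cells (limma adjusted p = 0.00949, 0.0535 without untreated replicate 2) and gave 0.11 in the knockout, a difference of -0.72 (SE 0.16) that did not pass. Car1 gave -2.24 in wild type and -3.16 in knockout cells, and that difference of 0.92 (SE 0.38) did not pass.

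**Figure D5:**
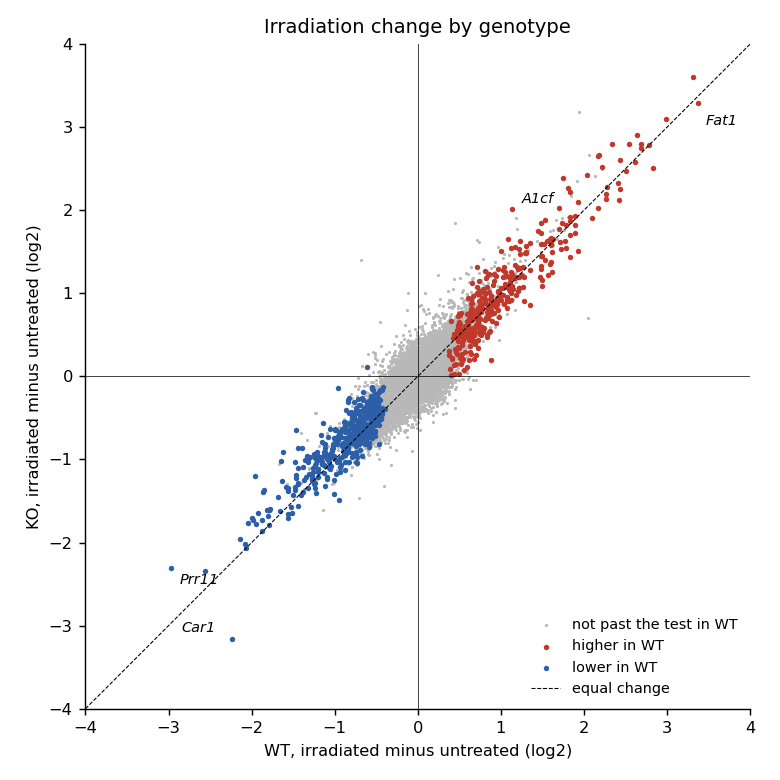
Irradiation change (log2) of 15348 genes in wild type cells on the horizontal axis and in NIPA knockout cells on the vertical axis, with the wild type rises in red, falls in blue and a dashed line at equal change. The points lie along the dashed line (r = 0.864), and A1cf and Car1 lie to its sides.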

How the data were processed

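The authors deposited 1 table of log2 expression values, 41345 probe sets by 12 arrays, summarized by RMA with the oligo package, per the submitters' processing notes. Versions and the build are not stated for these arrays in the sources used here. RMA equalizes the arrays' distributions, so a change in total RNA per cell is not seen, and the number of arrays, not a read depth, limits the precision. Probe sets with exactly 1 gene symbol in the platform annotation were kept (23521), the brightest one per gene, and 15348 genes above 5.29 (the 40th percentile of the table) in at least 3 arrays were tested. Gene IDs matched RefSeq for 23328 of these probe sets. limma 3.58.1 (R 4.3.3) was fitted to all 12 arrays in 4 groups, with two-sided p-values adjusted by Benjamini-Hochberg at 0.05, and tested on simulated data. Tables and figures used Python 3.11.15, pandas 2.3.3, numpy 2.4.6 and matplotlib 3.10.9.

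Replicate numbers come from the sample titles. Deviations from the group means of same-numbered wild type arrays correlated at 0.491, 0.476 and 0.42, and those of other numbers at -0.37 to -0.08. The numbers were therefore taken to pair the samples. Deviations within a group cancel for each gene, so positive same-number values force negative ones on balance among the other numbers. Named genes were the 25 largest rises and falls that held with each array left out, the 10 smallest p in each direction, up to 6 passing and 2 not passing members of each of 44 gene lists, 13 preset genes, the 5 smallest p of the genotype difference, and members with printed promoters. The members and lists were chosen with earlier results of these data known. Alternatives were the brightness limit, the scaling, the samples fitted, the block, the prior, array weights, averaging of probe sets, and leaving out arrays.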

Additional observations from a re-analysis of the deposited data

Results flagged for a closer look

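The comparisons above use probe sets with exactly 1 gene symbol. Among 8974 tested probe sets with no symbol here, 47 (0.524%) passed in the same fit, 16 of them higher and 31 lower in irradiated wild type cells. Among 1164 tested probe sets with several symbols, 18 (1.55%) passed, 9 of them higher. These signals lie outside the main measurement, and the genes they read were not analysed here.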

How the results depend on the processing

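The count of 742 calls (327 higher, 415 lower) stayed within 1.5 times its size under the settings named next. It was 692 with no brightness limit, 781 with a limit at the 50th percentile, 708 with array medians subtracted and 757 with loess. It was 729 with only the wild type arrays, 732 with another prior and 728 with averaged probe sets. The genes behind these counts differed in part. Of the 742 calls, 586 were made with only the wild type arrays, 666 with loess and 674 with medians subtracted. The balance of the directions moved with the scaling: 389 higher and 368 lower with loess, 271 higher and 437 lower with medians subtracted. Some calls near the threshold were lost under at least 1 of these settings, with limma adjusted p of 0.0502 to 0.113. Among these were Ccl3, H60b, Satb1, Ulk1, Xrcc6, Fdft1, Kdm1a, Kdm5b, Msmo1, Mx2, Atp5o, Fli1, Polh, Utp20 and Hmox1. Averaged probe sets also ended the calls of Myb (limma adjusted p = 0.21) and Pole (limma adjusted p = 0.051). With array weights 642 genes were lower (1061 calls in all), with 6 falls among damage sensors and 13 among Fanconi and recombination genes. With the replicate block within each genotype, the paired fit, there were 1228 calls, 510 higher and 718 lower, and with the block on the 6 wild type arrays alone 2111, 891 higher and 1220 lower. Of the named genes, the block within genotype ended 3 calls, added 30 and kept the other 216 on their side of the threshold. Leaving out 1 array gave 314 to 1040 calls, 167 to 435 higher and 138 to 605 lower. Leaving out both wild type arrays of a number gave 579 calls for number 1, 197 for number 2 (126 higher, 71 lower) and 149 for number 3 (94 higher, 55 lower). The test of the difference between genotypes made 0 calls under each of these settings that holds knockout arrays (it cannot be made from wild type arrays alone). No named gene changed sign under an alternative after passing the test. The counts of falls in chromosome structure, replication, repair and ribosome biogenesis moved by over 1.5 times without untreated replicate 2 or untreated replicate 3. With 3 arrays a group, differences near the median interval of 0.32 to each side cannot be told from 0.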
